A study of Mus musculus with 72 samples.

Results

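Gastrocnemius muscle of mice fasted for 24 h was compared with that of fed mice at Zeitgeber time (ZT) 0, the hour at which the lights came on. The comparison was taken by the tissue, feeding state and time in the labels and rests on 6 of the 72 libraries of the series, 3 fasted (replicates 1, 3 and 5) and 3 fed (replicates 3, 4 and 5). Both groups were male C57BL/6J mice aged 8 weeks, kept on a 12 h light, 12 h dark schedule, and the fed mice had free access to normal chow. No allele or other treatment was given in the labels. The other 30 muscle libraries, 3 per feeding state at ZT4, ZT8, ZT12, ZT16 and ZT20, served to ask which changes differed at ZT0 from those at other hours. Polyadenylated RNA was measured per gene in a table of 20561 genes, and separately over exons and introns in tables of 19433 genes each. Levels are FPKM (fragments relative to transcript length and library size), and changes are differences of log2(FPKM + 0.5), fasted minus fed, with their standard error, a scale on which low genes appear to change less than they do.

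Skeletal muscle burns glucose after a meal and fatty acids during a fast, and it is the main protein store of the body. In a fast, insulin falls and glucocorticoids rise; the FOXO transcription factors, held inactive by insulin signalling, then enter the nucleus and, with the glucocorticoid receptor, switch on genes of proteolysis and autophagy. Nocturnal mice eat mostly in the dark, so at lights on a freely fed mouse has just ended its feeding phase. The molecular clock of muscle, in which BMAL1 (encoded by Arntl) and CLOCK drive their own repressors of the Per, Cry and Nr1d families, runs under both light and feeding signals.

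Muscle markers were high in all 6 libraries, and the fed ones also carried traces of liver RNA. The 12 fast muscle fibre markers summed to 92853 to 112502 FPKM per library, and neither Acta1, the skeletal actin gene (-0.12 ± 0.14), nor Ckm, the muscle creatine kinase gene (-0.18 ± 0.13), passed the test. Alb, which encodes the albumin made by hepatocytes, was at 26.9, 24.3 and 24.1 FPKM in fed and 0.157, 0.168 and 0.257 FPKM in fasted libraries. Over abundant liver genes at least 100 times higher in liver, the median level in fed libraries was 0.0976% to 0.109% of that in fed liver at ZT0. Genes at least 100 times higher in liver were therefore set aside: 89 of the 11223 genes past a filter of 1 FPKM in at least 3 of the 36 muscle libraries, which left 11134 genes. All 21 hepatocyte markers measured were at least 100 times higher in liver, and 17 of them were past the filter. Depth over whole genes, estimated from low values, was 22.7 to 26.0 M reads per library at ZT0. Fed replicate 5 stood apart in adipocyte and lipogenic genes: Cfd, the adipsin gene of adipocytes, was at 68.4, 63.9 and 311 FPKM in fed replicates 3, 4 and 5. Counts of adipocyte and lipid synthesis genes, and values of Fasn and Scd1, are given below also without it.

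At ZT0, 1619 genes rose in fasted muscle (14.5% of 11134) and 4635 fell (41.6%), 56.2% in all, at an adjusted p under 0.05 in limma fitted to all 36 muscle libraries. Of these, 469 rose (4.21%) and 825 fell (7.41%) by 2-fold or more, and for 7737 genes (69.5%) the 3 fasted and 3 fed libraries did not overlap. The median change of all genes was -0.25, so that a median-of-ratios scaling, which brought it to -0.01, gave 2810 rises (25.2%) and 2671 falls (24%), and 51.3% of its calls were higher against 25.9% as deposited. In whole muscle, fewer cells of a type and less RNA per cell cannot be told apart. Nothing says that the libraries came from separate animals, and the p-values therefore speak only of the spread among these samples.

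The largest rise was that of 8430408G22Rik, which RefSeq lists as a synonym of Depp1, a target gene of FOXO factors in human cells. It stood at 1.58, 1.70 and 1.63 FPKM in fed and 520, 271 and 466 FPKM in fasted libraries, a change of 7.56 ± 0.25 (limma, adjusted p = 3.29e-19). Ddit4, whose product REDD1 inhibits mTORC1, the kinase that drives protein synthesis, was next (mm10, chromosome 10, 59949669 to 59951834, minus strand, GENCODE M21). Its level went from 2.43, 2.10 and 3.59 FPKM in fed to 345, 245 and 447 FPKM in fasted libraries (6.74 ± 0.28, adjusted p = 2.26e-17). For both genes the lowest fasted library was far above the highest fed one. Mt2 and Mt1, genes of zinc-binding metallothioneins, rose by 5.28 ± 0.43 and 4.83 ± 0.42, and Cebpd, a transcription factor of the stress response, by 5.21 ± 0.28.

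The most abundant of the 12 largest rises was Trim63, which encodes MuRF1, the ubiquitin ligase that marks sarcomere proteins for breakdown (chromosome 4, 134315120 to 134329629, plus strand). It stood at 148, 142 and 137 FPKM in fed and 3057, 3303 and 3637 FPKM in fasted libraries, a change of 4.54 ± 0.13 with the smallest adjusted p of the 12 (1.39e-20). The rest of the 12 were Arl4d, a small GTPase gene (4.65 ± 0.36), Maff, a small MAF transcription factor gene (4.47 ± 0.33), Acot2, a mitochondrial acyl-CoA thioesterase gene (4.40 ± 0.19), Arrdc2, an arrestin domain gene (4.35 ± 0.29), Chac1, a glutathione-degrading enzyme gene of the ATF4 response (4.31 ± 0.65), and Slc43a1, a transporter gene of large neutral amino acids (4.30 ± 0.21). Chac1 was the least even of them, at 4.86, 4.48 and 9.12 FPKM in fed and 129, 106 and 144 FPKM in fasted libraries (adjusted p = 3.31e-06). Even so, its groups lay far apart.

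The largest fall was that of Nmrk2, the muscle form of nicotinamide riboside kinase, an enzyme of NAD synthesis (chromosome 10, 81198170 to 81202051). Its level was 62.4, 76.1 and 59.2 FPKM in fed and 2.23, 3.10 and 1.12 FPKM in fasted libraries (-4.71 ± 0.38, adjusted p = 4.00e-11). Myod1 and Igfbp5 were among the next. Myod1, the master transcription factor of the muscle lineage and a clock output gene (chromosome 7, 46376474 to 46379099), went from 11.7, 12.5 and 13.2 FPKM to 0.151, 0.999 and 0.471 FPKM (-3.72 ± 0.21). Igfbp5, a binding protein gene of insulin-like growth factors, went from 152, 175 and 149 FPKM to 15.8, 13.8 and 12.2 FPKM (-3.47 ± 0.32). In each of these 3 genes the groups were widely separated.

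The other large falls were those of Ky, a muscle gene whose loss gives kyphoscoliosis in mice (-3.93 ± 0.21), G0s2, an inhibitor of adipose triglyceride lipase (-3.75 ± 0.50), Dusp10, a phosphatase of stress kinases (-3.74 ± 0.38), Sec14l5 (-3.47 ± 0.31), Lrrc38, an auxiliary subunit of BK potassium channels (-3.42 ± 0.27), Cited4, a transcriptional co-regulator (-3.25 ± 0.19), Fam78a (-3.23), and the gene models 6430571L13Rik (-4.66 ± 0.20) and A930016O22Rik (-3.49). G0s2 was higher in fed replicate 5 (65.2 FPKM) than in fed replicates 3 and 4 (27.1 and 29.7 FPKM), and fell by 3.36 without it. The library kit does not mark strand, so reads of overlapping genes on opposite strands cannot be told apart. Of the 23 of these 24 genes with coordinates (8430408G22Rik had none), that applies to Mt2, Cebpd, Nmrk2, 6430571L13Rik, G0s2, Dusp10, A930016O22Rik, which lies opposite Ckm, and Fam78a, which lies opposite Nup214.

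**Figure D1:**
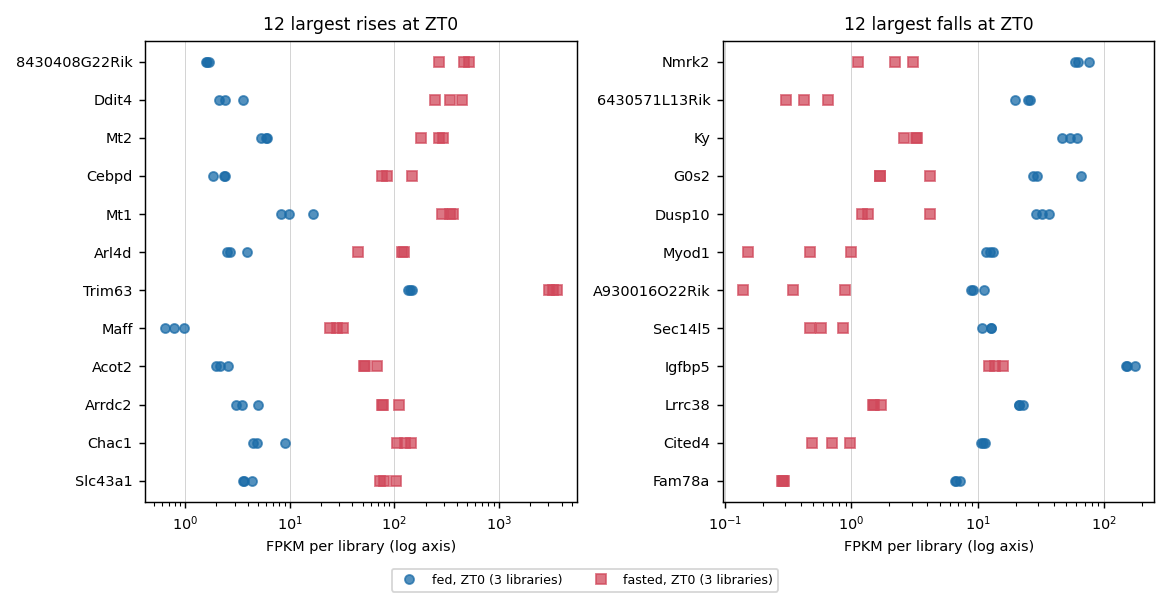
Level of the 12 largest rises (left) and 12 largest falls (right) at ZT0 in each library, in FPKM on a log axis; circles are the 3 fed and squares the 3 fasted libraries. The groups do not overlap for any of the 24 genes, which the choice required; Trim63 reaches 3637 FPKM in fasted muscle.

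Proximal promoters of 3 genes are shown because the data bear on the pathways their known motifs stand for: Trim63 for proteolysis, Per1 for the clock and Chac1 for the ATF4 response. Each is the 250 bases before the transcription start on the plus strand (RefSeq, GRCm38.p6), with Per1 taken at the first of its 2 RefSeq starts. The other Per1 start, not shown, held none of the motifs searched. Capitals mark motif matches on either strand.
Trim63, chr4:134314870-134315119: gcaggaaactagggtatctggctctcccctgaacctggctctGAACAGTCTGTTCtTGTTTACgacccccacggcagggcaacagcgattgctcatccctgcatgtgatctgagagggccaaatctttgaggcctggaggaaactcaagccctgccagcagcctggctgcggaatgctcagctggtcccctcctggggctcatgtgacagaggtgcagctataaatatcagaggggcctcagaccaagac
Per1, chr11:69098699-69098948: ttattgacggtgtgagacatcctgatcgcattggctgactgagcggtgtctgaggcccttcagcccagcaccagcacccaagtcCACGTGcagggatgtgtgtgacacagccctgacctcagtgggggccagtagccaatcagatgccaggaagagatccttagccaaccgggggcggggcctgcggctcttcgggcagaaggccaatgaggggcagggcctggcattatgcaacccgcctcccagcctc
Chac1, chr2:119350992-119351241: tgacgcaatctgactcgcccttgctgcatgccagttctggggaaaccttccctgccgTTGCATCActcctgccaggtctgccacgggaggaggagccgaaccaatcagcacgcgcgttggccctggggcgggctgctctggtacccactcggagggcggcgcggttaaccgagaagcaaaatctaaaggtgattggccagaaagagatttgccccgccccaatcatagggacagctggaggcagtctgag
In Trim63 the glucocorticoid receptor motif, the half-sites GAACA and TGTTC with 3 bases between them, lies at -208 to -196 from the start and the FOXO motif GTAAACA, read on the minus strand, at -194 to -188, with 1 base between them. The first is in 0.0396% and the second in 3.17% of 32851 promoters of the same length, counted on both strands. Per1 holds the E-box CACGTG, the letters read by CLOCK and BMAL1, at -166 to -161 (6.02% of promoters), while Chac1 holds the composite C/EBP-ATF motif TGATGNAA on the minus strand at -193 to -186 (3.45%). These are matches of letters, not sites shown to be bound. Among the 10 of the 12 largest rises with a promoter in the table, Trim63 alone held the glucocorticoid receptor or the FOXO motif, and in the 13 of 18 glucocorticoid response genes with one, Sgk1 alone held the former. None of the 17 of 22 insulin and FOXO genes with a promoter held the FOXO motif. Of the 11 of 13 core clock genes with one, only Cry1 and Per1 held the E-box.

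Genes of the insulin and FOXO pathway mostly rose. Of 22 tested members of the insulin and FOXO list, 16 rose, 3 fell and 3 did not pass, with a median change of 0.98 against -0.25 for all genes. Over all 11134 genes 14.5% rose and 41.6% fell, shares that also stand beside the list counts that follow. Sesn1, encoding a stress sensor that restrains mTORC1, went from 6.56, 6.11 and 5.91 FPKM in fed to 115, 101 and 140 FPKM in fasted libraries (4.14 ± 0.18, adjusted p = 1.10e-16). Foxo1 itself went from 3.84, 3.29 and 3.65 to 40.4, 28.1 and 33.7 FPKM (3.07 ± 0.15), again with no overlap. Cdkn1a, a cell cycle inhibitor (3.82 ± 0.26), Gadd45a, a stress gene of muscle atrophy (3.47 ± 0.18), Klf15, a glucocorticoid-induced regulator of amino acid use (3.28 ± 0.16), and Irs2, an insulin receptor substrate (2.06 ± 0.39), also rose, while Foxo6 (-2.14), Sesn3 (-0.87) and Grb10 (-0.68) fell. Pik3r1 (0.25) was the largest that did not pass.

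Of 17 tested glucocorticoid response genes, 15 rose and none fell, beside 14.5% and 41.6% of all genes. The counts were the same at an unadjusted p under 0.05, and the median was 2.89, the highest of the 27 pathway lists. Glul, glutamine synthetase, was at 48.5, 47.0 and 60.2 FPKM in fed and 862, 682 and 841 FPKM in fasted libraries (3.93 ± 0.15, adjusted p = 8.83e-18). Fkbp5, a co-chaperone of the receptor and its classical target, was at 12.2, 13.8 and 11.5 against 116, 93.6 and 124 FPKM (3.10 ± 0.15). Both separated the groups fully, whereas the phosphatase gene Dusp1 (-0.23) and the receptor gene Nr3c1 (0.06) did not pass. Pdk4, Angptl4, Klf9, Tsc22d3, Cebpb and Errfi1 rose by 1.43 to 4.13, and several list members are targets of other pathways too.

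Proteolysis and autophagy genes mostly rose. Of 19 ubiquitin ligase and proteasome genes, 13 rose and none fell, at an unadjusted p either (median 0.50), and of 26 autophagy and lysosome genes, 14 rose and 5 fell (median 0.44). Fbxo32, which encodes atrogin-1, the other classical atrophy ligase beside Trim63, stood at 58.7, 37.5 and 46.6 FPKM in fed and 490, 526 and 589 FPKM in fasted libraries (3.50 ± 0.19, adjusted p = 1.80e-14). Cblb, a ligase gene that acts on insulin receptor substrates, rose by 2.16 ± 0.17, and the 4 proteasome subunits listed rose by 0.37 to 1.13. Fbxo21 did not pass (0.42, adjusted p = 0.0501). Among autophagy genes, Gabarapl1, encoding an LC3 family protein of autophagosomes, went from 18.9, 18.8 and 22.9 to 269, 252 and 294 FPKM (3.72 ± 0.22), and Ulk1, the starting kinase of autophagy, from 17.0, 16.6 and 17.5 to 93.7, 77.2 and 106 FPKM (2.39 ± 0.15). Neither gene's groups overlapped; Gabarapl1 has the gene model 1700101I11Rik on its opposite strand. The 5 that fell were Atg5 (-0.73), Atg12 (-0.39), Ulk2 (-0.34), Becn1 (-0.34) and Ctsb (-0.26); under median-of-ratios scaling 1 of the 26 fell.

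Genes that set the conversion of pyruvate to acetyl-CoA changed. Pdk4, the kinase that shuts the pyruvate dehydrogenase complex, was at 232, 110 and 93.4 FPKM in fed and 2351, 2569 and 2173 FPKM in fasted libraries (4.13 ± 0.25, adjusted p = 1.59e-13). The phosphatases that open the complex went both ways, Pdp1 from 18.2, 17.5 and 18.4 to 5.91, 6.60 and 5.05 FPKM (-1.55 ± 0.18) and Pdp2 from 1.21, 1.06 and 1.43 to 9.53, 8.28 and 10.5 FPKM (2.52 ± 0.20). All 3 separated the groups. Of 33 genes of glucose use, 9 rose and 10 fell as deposited, but 18 rose and 6 fell under median-of-ratios scaling. Txnip, which restrains glucose uptake, rose by 2.35, and the hexokinase gene Hk2 fell by 0.69. Slc2a4, the insulin-responsive glucose transporter GLUT4, gave 167, 177 and 178 against 183, 182 and 184 FPKM and did not pass (0.07 ± 0.07).

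Of 29 genes of fatty acid use, 15 rose and 1, the coactivator gene Ppargc1b (-1.81), fell, beside 14.5% and 41.6% of all genes. The median was 0.62. Ucp3, an uncoupling protein of muscle mitochondria, went from 34.0, 26.8 and 25.3 to 253, 203 and 215 FPKM (2.95 ± 0.17, adjusted p = 2.52e-14). Acot1, a cytosolic thioesterase (3.17), Angptl4, an inhibitor of lipoprotein lipase (3.45), Pnpla2, adipose triglyceride lipase (2.13), and Plin5, a lipid droplet coat gene (2.12), rose with it. The beta-oxidation genes Acadl (0.84), Slc25a20 (0.87) and Hadha (0.42) rose less, and Cpt1a, Cpt1b, Acadm and Ppargc1a were among the 13 that did not pass. Under median-of-ratios scaling 22 of the 29 rose.

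Lipid and cholesterol synthesis went down: 21 of 28 genes fell and 4 rose, beside 41.6% and 14.5% of all genes, with a median of -0.99. With genes at least 10 times higher in liver set aside, 14 members were left, of which 8 fell and 4 rose (median -0.56). With the estimated liver share subtracted from each library instead, 21 of 28 fell and 4 rose (median -0.95). Srebf1, the transcription factor gene of lipogenesis, was at 13.3, 15.5 and 20.1 FPKM in fed and 4.22, 4.68 and 4.41 FPKM in fasted libraries (-1.75 ± 0.13, adjusted p = 8.83e-12). Fasn, fatty acid synthase, gave 6.38, 6.85 and 40.9 against 1.42, 0.952 and 1.13 FPKM (-2.95 ± 0.57), and Scd1, a desaturase, 37.8, 45.1 and 229 against 36.2, 9.61 and 6.84 FPKM (-2.40). Fed replicate 5 was the highest fed library for all 3 genes, and for Scd1 fasted replicate 1 came close to the other fed ones. Without that fed library, 18 fell and 4 rose; Fasn then stood at -2.10 ± 0.53 (adjusted p = 0.00209), and Scd1 at -1.58 ± 0.92, which did not pass (adjusted p = 0.158). The 4 that rose were Lpin1, a phosphatidate phosphatase and co-regulator (1.59 ± 0.15), Dgat2 (1.01), Acacb (1.00) and Fdft1 (0.96). Of 8 adipocyte markers 4 fell and none rose, beside 41.6% of all genes that fell. Without fed replicate 5 there were 2 falls among them, Car3 and Lep, and the rest did not pass. The markers' summed level was 1966 to 2795 FPKM in fed and 1161 to 1448 FPKM in fasted libraries, and none was at 0. Their part in the result was not tested.

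Amino acid genes were mixed. In the integrated stress response list of 20, Chac1, Atf3 (1.99), Vldlr (1.06) and Atf4 (0.81) were among the 8 that rose, whereas 4 fell (2 without fed replicate 5): the serine synthesis genes Phgdh (-1.07), Psat1 (-0.80) and Psph (-1.12) and the stress factor gene Ddit3 (-1.21). Asns, asparagine synthetase and a classical ATF4 target, did not pass (-0.17). Of 21 genes of amino acid breakdown and polyamines, 11 rose and 4 fell. Beside Glul these were led by Ampd3, an AMP deaminase (2.68), Odc1, the first enzyme of polyamine synthesis (38.4, 38.1 and 45.7 against 182, 178 and 233 FPKM, 2.26 ± 0.23), and the transaminase genes Got1 (1.28) and Gpt2 (1.25). Of 16 genes of NRF2 and oxidant defence, 10 rose and 1 fell (median 0.66). Hmox1, haem oxygenase 1, was at 3.45, 4.24 and 5.59 FPKM in fed and 49.0, 93.9 and 95.9 FPKM in fasted libraries (3.98 ± 0.28), and Srxn1, sulfiredoxin, rose by 2.28. Of 17 immediate early genes, 9 rose, led by Maff and Btg2 (3.44), and Nr4a1 fell (-1.26).

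Matrix genes mostly fell: 17 of 21 collagen and matrix genes fell and none rose, beside 41.6% and 14.5% of all genes. At an unadjusted p under 0.05 the counts were 18 and none, and the median was -1.33, the lowest of the pathway lists. Col15a1, a collagen of the muscle basement membrane zone, went from 12.9, 11.4 and 13.1 to 1.55, 1.19 and 1.42 FPKM (-2.79 ± 0.29, adjusted p = 7.42e-09). Col1a1 went from 64.1, 76.7 and 68.2 to 30.1, 15.3 and 19.4 FPKM (-1.72 ± 0.43), and Serpinh1, the collagen chaperone HSP47, fell by 2.04. In both collagens every fed library was above every fasted one, while Col4a1, Col4a2, Fn1 and Lama2 did not pass. Without fed replicate 5, 13 of 21 fell. Of 10 fibroblast markers, 4 fell, beside 41.6% of all genes. Among these, Col1a1, Col3a1 and Lum are also on the matrix list and Dpt (-0.76) is not. Dcn (-0.01), Pdgfra (-0.28) and the rest did not pass, and the part of these markers in the result was not tested.

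Of 18 myogenic and growth control genes, 9 fell, 8 did not pass and 1 rose, beside 41.6% of all genes that fell, and 6 fell and 3 rose under median-of-ratios scaling. Among those that fell were Myod1, Igfbp5, Mef2c (-1.42), Tead1 (-1.50) and Igf1, encoding insulin-like growth factor 1 (5.23, 6.51 and 6.78 against 0.812, 0.831 and 0.547 FPKM, -2.44 ± 0.20). The 1 that rose as deposited was Mstn, the growth inhibitor myostatin (1.09). Of 12 acetylcholine receptor and denervation genes, 4 rose and 4 fell. Musk, the receptor kinase of the nerve-muscle synapse, went from 5.49, 5.23 and 5.88 to 45.1, 35.2 and 44.6 FPKM (2.80 ± 0.39), while the receptor subunit genes Chrna1, Chrnb1 and Chrnd did not pass. Tfrc, the transferrin receptor of iron uptake, went from 68.0, 68.9 and 64.1 to 7.62, 7.94 and 5.98 FPKM (-3.14 ± 0.23), in a list of 13 iron and haem genes of which 2 rose and 5 fell as deposited and 3 rose and 3 fell under median-of-ratios scaling. Among vessel growth genes, Vegfa was at -1.65 ± 0.28, its receptor gene Kdr at -1.96 ± 0.27 and the apelin receptor gene Aplnr at -3.09, and of 16 genes of hypoxia and angiogenesis 8 fell and 5 rose as deposited, and 7 fell and 7 rose under median-of-ratios scaling. Of 11 endothelial markers 2 rose and 6 fell as deposited, but 4 rose and 2 fell under median-of-ratios scaling, and Pecam1 (0.08) did not pass under the deposited one. In the 11-gene NAD list 6 fell and Sirt1 rose (0.75), but 2 fell and 3 rose under median-of-ratios scaling. Of 9 cell cycle genes 4 fell, led by Ccnd1 (-2.23), and 2 rose, with 2 and 3 under quantile scaling.

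Counts for genes of contraction and respiration depended on the scaling. Of 22 ribosomal protein genes none passed in limma, at an unadjusted p under 0.05 either, though 3 rose under median-of-ratios scaling. Of 25 oxidative phosphorylation genes 2 fell, Sdhd (-0.46) and Ndufs1 (-0.23), but 1 rose and none fell under median-of-ratios scaling, 13 fell under quantile normalization and 14 fell in a fit over the 6 ZT0 libraries alone. Of 28 sarcomere and calcium handling genes 4 rose and 6 fell as deposited, and 11 rose and 2 fell under median-of-ratios scaling; Casq1, the calcium store protein calsequestrin, gave the largest fall (-1.02) and Actn2 the largest rise (0.75), and 2 rose when fed replicate 4 or 5 or fasted replicate 3 or 5 was left out. Of 20 ribosome biogenesis genes 11 rose, Myc by 2.18, and 3 fell, with 13 and none under median-of-ratios and 12 and 1 under quantile scaling. Of 19 mTORC1 and translation factors 5 rose and 5 fell as deposited, 10 rose and 3 fell under median-of-ratios scaling, and 3 fell without fed replicate 3, without fed replicate 4 or without fasted replicate 5. Both directions were also found among endoplasmic reticulum folding genes (5 of 20 rose, 9 fell; 7 and 5 under median-of-ratios scaling) and heat shock genes (5 of 18 rose, 6 fell; 5 and 1 under that scaling, 5 and 3 without fed replicate 5). Among markers of fibre types and other cells, no slow fibre marker of 9 and no Schwann cell marker of 8 passed, at an unadjusted p under 0.05 either, 3 of 10 macrophage markers fell and 1 rose (6 fell without fed replicate 3 or 4, 2 without fed replicate 5), and 4 of 7 smooth muscle and pericyte markers fell (2 fell and 1 rose under median-of-ratios scaling). Of 12 fast fibre markers 2 rose and 2 fell, against 5 and none under median-of-ratios scaling. Of 4 satellite cell markers Sdc4 rose and Vcam1 and Heyl fell, neither of 2 erythroid markers nor the 1 neutrophil marker tested passed, and no lymphocyte marker was high enough to test.

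**Figure D2:**
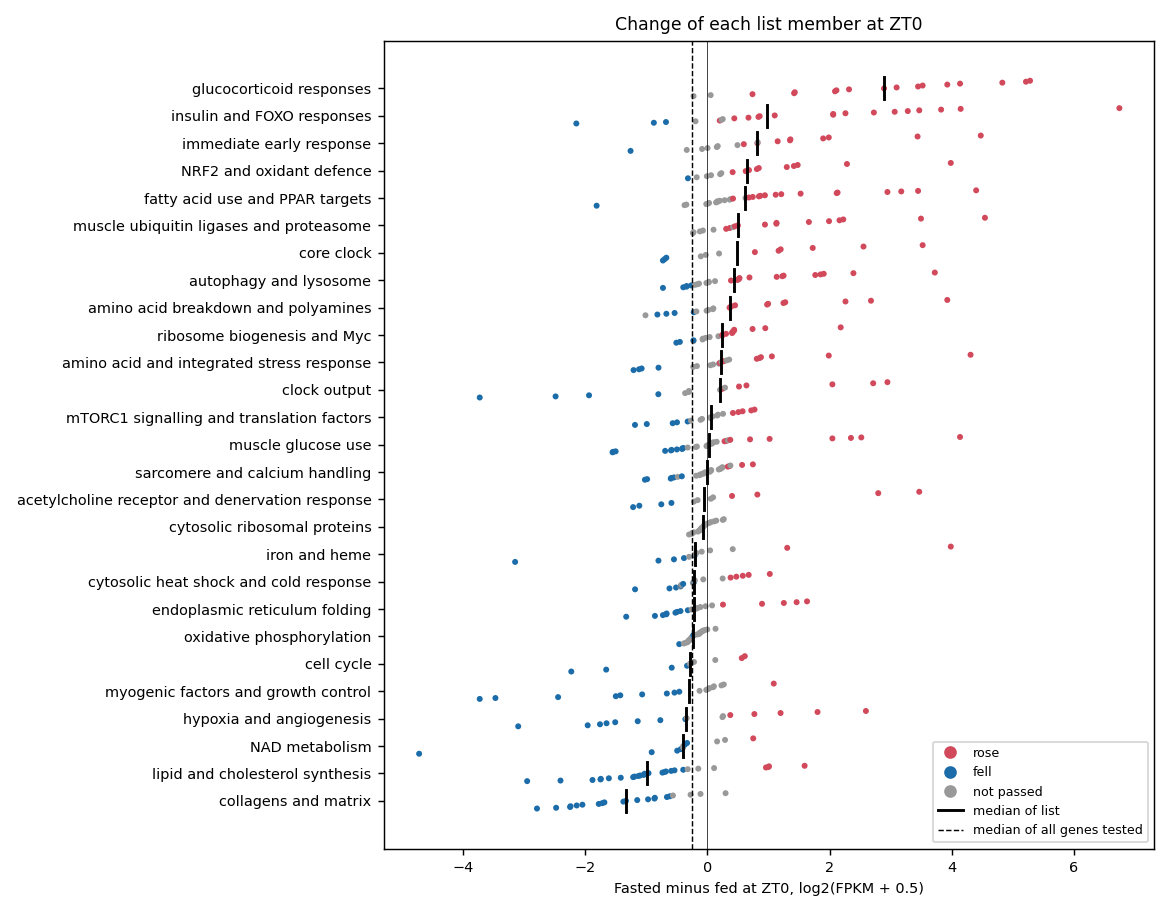
Change at ZT0 of each tested member of the 27 pathway lists, on the log2(FPKM + 0.5) scale, fasted minus fed; colours give the call, thick bars the list median and the dashed line the median of all genes (-0.25). Medians run from 2.89 for glucocorticoid responses to -1.33 for collagens and matrix.

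Most core clock genes changed at lights on. Of 12 clock genes, 6 rose, 3 fell and 3 (Clock, Npas2 and Nr1d2) did not pass. Of all genes, 14.5% rose and 41.6% fell. Per1, a repressor that light, glucocorticoids and CREB also induce, went from 2.05, 1.42 and 1.93 to 28.5, 23.3 and 25.7 FPKM (chromosome 11, 69095217 to 69109960; 3.52 ± 0.18). Cry2 (7.25, 7.48 and 7.74 against 46.1, 39.0 and 55.7 FPKM, 2.55 ± 0.20) and Rora (9.43, 9.36 and 9.22 against 33.5, 33.6 and 29.2 FPKM, 1.72 ± 0.24) followed, all 3 without overlap. Arntl rose from 14.2, 16.2 and 14.5 FPKM to a mean of 35.1 ± 3.5 FPKM (SD, n = 3; lowest 31.2) by 1.20, and Per2 by 0.78 (0.695, 0.932 and 1.11 against 2.28, 1.61 and 1.87 FPKM). Cry1 (-0.73) and Per3 (-0.70) fell. So did Nr1d1, which encodes the Arntl repressor REV-ERBα, at 36.5, 34.6 and 35.9 against 20.2, 33.1 and 16.4 FPKM (-0.67), with fasted replicate 3 near the fed level; this call was lost in 6 of the alternative settings, and Nr1d1 overlaps Thra on the opposite strand. Of 15 clock output genes 6 rose, led by Ucp3 and the repressor gene Nfil3 (2.71 ± 0.44), and 4 fell, among them Bhlhe41 (-2.48 ± 0.23) and Bhlhe40 (-1.93).

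How far the response belonged to this hour was tested by subtracting the change at other times from that at ZT0 in the same model. Against the mean of the other 5 times, the ZT0 change was higher for 175 genes (1.57%) and lower for 1179 (10.6%), 12.2% in all, with a median of -0.11; under median-of-ratios scaling the counts were 359 (3.22%) and 516 (4.63%), so that 41% of its calls were higher against 12.9% as deposited. Most of the ZT0 response was shared. Of the 6254 genes called at ZT0, 5732 (91.7% of them, and 62.7% of the 9143 called for the mean of the other times) changed in the same direction on average at the other times, 3446 (55.1%) were called in the same direction at each of the 5, and 261 at none.

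The ZT0 response was closest to that of the neighbouring hours. Its change differed for 4 genes from that at ZT20 (0.0359%) and for 85 from that at ZT4 (0.763%), but for 1292 from that at ZT8 (11.6%), 2175 at ZT12 (19.5%) and 1967 at ZT16 (17.7%). The 4 genes that differed from ZT20 were Glul and Glt28d2 (higher at ZT0) and Ppp1r10 and Fam25c (lower at ZT0), named after their values were seen. All of these differences share the 6 libraries of ZT0. For 530 of the 1179 genes with a lower ZT0 change, the change was not called at ZT0 but was at the mean of the other times, for 284 it was smaller in the same direction, for 124 larger, for 141 it was called at ZT0 alone, and for 100 the directions were opposite.

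**Figure D3:**
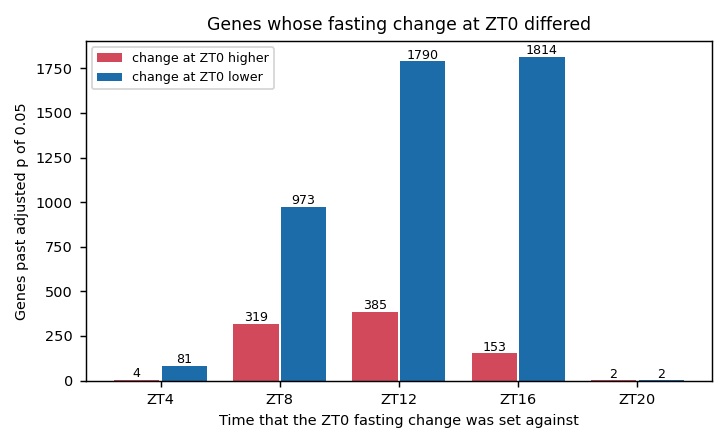
Number of genes (of 11134) whose fasting change at ZT0 was higher or lower than that at each other time, at an adjusted p under 0.05. Counts are 4 in all against ZT20 and 85 against ZT4, and rise to 2175 against ZT12.

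Ppp1r10 was the 1 gene of 11134 (0.00898%) whose ZT0 change passed and differed in 1 direction from that at every other time. It encodes PNUTS, a nuclear regulator of protein phosphatase 1 that acts at the end of transcription (chromosome 17, 35916434 to 35932283). Its level was 7.48, 6.25 and 7.65 FPKM in fed and 1.88, 2.36 and 2.68 FPKM in fasted libraries, a change of -1.45 ± 0.17 (limma, adjusted p = 4.99e-08). Fed ZT0 muscle was the group that stood out, at 7.13 ± 0.77 FPKM (SD, n = 3), whereas fed muscle at other times was at 2.65 to 4.29 FPKM and fasted muscle at 2.04 to 4.52 FPKM over the day. The mean change at other times was -0.025, which left a difference of -1.42 ± 0.18 (adjusted p = 1.29e-05). Exonic and intronic signal fell alike at ZT0, by 1.52 and 1.51. The call did not hold without fed replicate 5 or without fasted replicate 1 (0 genes set apart in each), nor with the replicate number as a block.

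Per1 and Per2 had higher changes at ZT0 than on average at the other times. Neither differed in limma from the change at ZT20 (adjusted p = 0.0789 and 0.999) or ZT4 (0.534 and 0.583). The Per1 change exceeded the mean of other times by 1.29 ± 0.20 (adjusted p = 9.64e-05) and that of Per2 by 0.88 (adjusted p = 0.00552); Per2 changed by -0.91 at ZT8 and -0.59 at ZT12. Fasted Per1 means were 25.8 FPKM at ZT0 and 26.0 to 32.2 FPKM at other times, whereas the fed mean was lowest at ZT0 and lay at 2.85 to 13.8 FPKM at other times. Arntl rose less at ZT0 than on average (-0.78, adjusted p = 0.0226), a difference that did not pass in 8 of 19 alternatives, among them median-of-ratios scaling (adjusted p = 0.115) and leaving out fed replicate 4 or 5 or fasted replicate 1 or 3. Dbp, a clock output transcription factor gene (chromosome 7, 45705088 to 45710203), showed the largest difference of all named genes, 2.58 ± 0.28 (adjusted p = 1.43e-06). At ZT0 its change of -0.30 did not pass, and its fed mean was 4.64 FPKM. Fed means at ZT4, ZT8, ZT12, ZT16 and ZT20 were 28.8, 72.5, 53.6, 22.3 and 9.63 FPKM and fasted means lay at 2.26 to 6.14 FPKM at all 6 times, so that the states were furthest apart at ZT8. Its ZT0 change was not distinguished from that at ZT20. Dbp overlaps Sphk2 on the opposite strand.

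Some genes had larger falls at other hours than at ZT0. Mylk4, a myosin light chain kinase gene (chromosome 13, 32700834 to 32783954), was at 310, 316 and 354 FPKM in fed and 276, 205 and 160 FPKM in fasted libraries (-0.65, not passed), against a mean of -2.82 at other times, a difference of 2.17. Fasted Mylk4 was 214 FPKM at ZT0, 19.6 at ZT12 and 292 at ZT20, so that ZT0 and ZT20 lay near each other and ZT12 far below. Fgfbp1, a carrier of fibroblast growth factors, differed by 1.55 ± 0.27, from 6.06, 7.51 and 6.11 to 6.06, 3.99 and 3.81 FPKM at ZT0 with overlap, against a mean change of -2.03 at other times. Chac1 in fed muscle was at 6.15 ± 2.6 FPKM at ZT0 and at 17.2 to 37.7 FPKM, with SD up to 40, at other times. Unlike the genes above it rose at ZT0, by more than on average at other times, a difference of 2.17 ± 0.71 (limma, adjusted p = 0.0438). That difference was lost when any 1 ZT0 library was left out. These genes, and those of the next paragraph, were chosen for the size of the difference after their values were seen.

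Other genes were higher in fasted muscle at ZT8 to ZT16 than at ZT0. Impact, a regulator of the amino acid sensor GCN2, had fasted means of 10.3 FPKM at ZT0 and 17.1, 32.1, 42.9, 37.0 and 10.1 FPKM at the later times in order, against 4.70 to 5.95 FPKM in fed muscle, a difference of -1.48. Ogg1, a DNA repair glycosylase (chromosome 6, 113326972 to 113335068), fell at ZT0 (-0.47) while fasted means rose to 10.1 FPKM at ZT12, a difference of -1.40; it overlaps Camk1 on the opposite strand. Zwint, a kinetochore gene, had fasted means of 24.9 FPKM at ZT0, 114 at ZT12 and 22.9 at ZT20 (-1.26). In all 3 the fasted ZT0 and ZT20 means lay close together. Flrt1 (-1.51), Spon2 (-1.44), Zfp60 (-1.41) and Sh3bp2 (-1.34) also had lower changes at ZT0, and Spon2, a matrix protein gene, did so as a larger fall, from 2.59, 3.00 and 2.60 to 0.326, 0.223 and 0.335 FPKM.

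**Figure D4:**
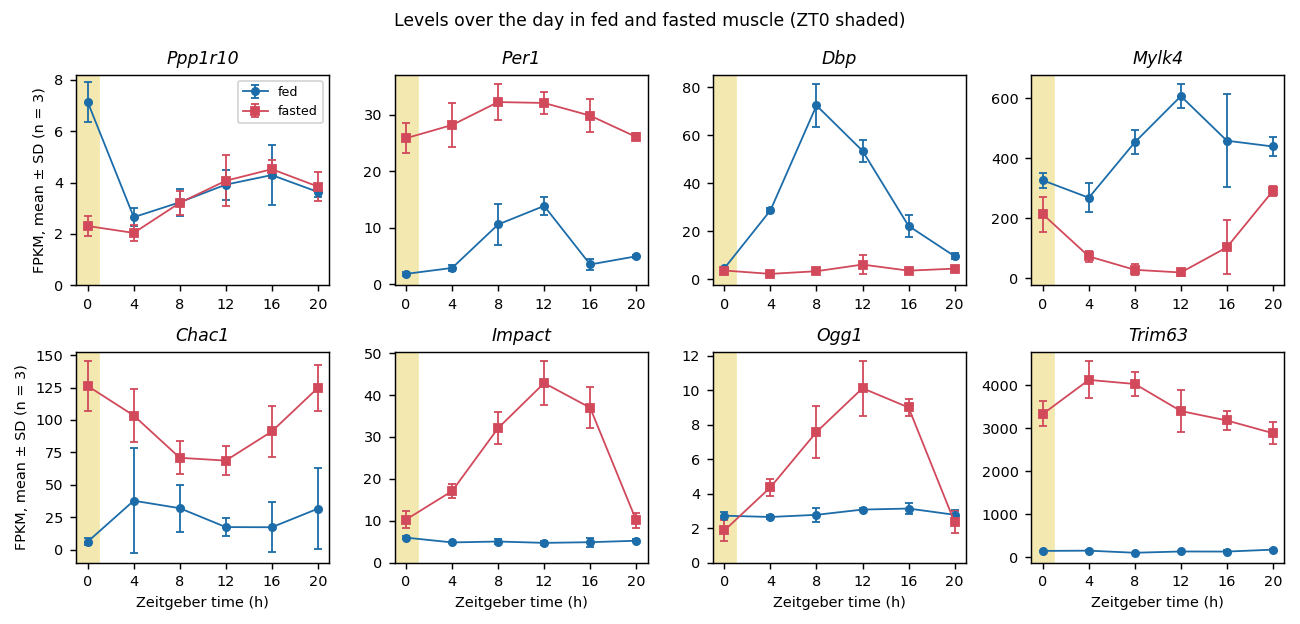
Mean level ± SD (n = 3 libraries), in FPKM, of 8 genes in fed (circles) and fasted (squares) muscle at each Zeitgeber time, with ZT0 shaded. Ppp1r10 is high in fed muscle at ZT0 alone, Dbp groups meet at ZT0, Impact and Ogg1 peak in fasted muscle at ZT12, and Trim63 is high in fasted muscle at all 6 times.

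Among the lists, proteolysis and chaperone genes had several members with a lower change at ZT0. Over all 11134 genes, 10.6% had a lower and 1.57% a higher change, shares that also stand beside the list counts that follow. They were 4.63% and 3.22% under median-of-ratios and 4.89% and 3.13% under quantile scaling. Of 19 ubiquitin ligase and proteasome genes, 8 had a lower change at ZT0 than on average and none a higher one (11 and 1 at an unadjusted p under 0.05; median -0.43 against -0.11 for all genes), with 3 lower under median-of-ratios and 7 under quantile scaling. Trim63 (-0.17) and Fbxo32 (-0.48) were not among them. Examples chosen after their values were seen are the deubiquitinase gene Usp14, at 20.4, 19.5 and 20.8 against 24.4, 25.4 and 25.8 FPKM (0.31 at ZT0, 1.05 on average at other times, difference -0.74), and the 20S subunit gene Psma1 (difference -0.68). Usp14 thus rose at ZT0 without overlap, but by less. Of 18 heat shock genes 8 were lower (5 and 7 under the other scalings, 10 at an unadjusted p) and none higher, among them Dnaja1, an HSP40 co-chaperone (-0.90), Hsf2 (-0.71) and Hsp90aa1, the inducible HSP90 gene, which fell at ZT0 (-0.51 ± 0.18) and had a mean change of 0.47 at other times. The counts above for ubiquitin ligase and proteasome genes and for heat shock genes thus moved with the scaling. So did those of autophagy (6 of 26 lower, 1 under median-of-ratios scaling) and endoplasmic reticulum folding genes (5 of 20 lower, 1 higher, and 1 each under that scaling).

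In the other direction, 10 of 33 genes of glucose use had a higher change at ZT0 than at other hours and 1, Arrdc4, a lower one (11 and 1 under median-of-ratios, 7 and 1 under quantile scaling). Of all genes, 1.57% were higher and 10.6% lower as deposited. Pdp2 (1.16 ± 0.22), Slc2a4 (0.45 ± 0.08) and Pgam2, the muscle phosphoglycerate mutase (0.78 ± 0.26), were among the 10 with a higher change. Pgam2 still fell at ZT0, from 1644, 1749 and 1615 to 571, 599 and 600.0 FPKM (-1.50 ± 0.24), but had a mean of -2.28 at other times. Of 15 clock output genes 5 were higher and none lower: Dbp, Usp2 (1.03 ± 0.15), Tcap, Ucp3 and Hlf. Glul (0.71), Per1 and Sgk1 (1.08) were the 3 glucocorticoid response genes with a higher change. In the whole-gene table, limma called no member of the matrix, lipid synthesis or denervation lists different between ZT0 and the mean of other times, with 0, 5 and 2 members at an unadjusted p under 0.05.

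Exonic and intronic signal were compared because intronic reads come mainly from unspliced RNA. Over exons, 1442 of 10920 genes rose (13.2%) and 4955 fell (45.4%), and over introns 1287 of 9092 rose (14.2%) and 2662 fell (29.3%). For 8291 genes tested in both, the exonic change exceeded the intronic one for 825 (9.95%) and fell short of it for 1071 (12.9%). These shares also stand beside the list counts below over exons, over introns and for the difference. The 2 tables are scaled to their own totals, so each change is relative to that kind of signal.

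Sarcomere genes lost intronic signal, while over exons 3 of 28 rose and 7 fell. Of 27 sarcomere and calcium handling genes with intronic signal, 19 fell and none rose (20 and none at an unadjusted p under 0.05), with a median of -2.13 against -0.27 for all genes over introns. Mybpc2, the fast form of myosin binding protein C (chromosome 7, 44501699 to 44524656), had intronic levels of 89.2, 95.5 and 81.5 FPKM in fed and 1.34, 1.41 and 1.63 FPKM in fasted libraries (-5.51 ± 0.26), but exonic levels of 1908, 2081 and 1774 against 2058, 2044 and 2445 FPKM (0.18). The groups thus separated over introns and overlapped over exons, and the difference of 5.69 ± 0.23 (adjusted p = 2.55e-16) was the largest of all genes. Mybpc2 overlaps the gene model Gm44646 on the opposite strand. Mylpf, a fast myosin light chain, had 243, 237 and 190 against 3.24, 8.10 and 5.09 FPKM over introns (difference 4.68), and Myh4, the IIb myosin heavy chain (4.26), Ckmt2, mitochondrial creatine kinase (3.98), and Lhb (3.91), which overlaps Ruvbl2, came next.

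In the same list 20 genes had an exonic change above the intronic one and 1 below it (median 1.81). Ckm (2.76), Acta1 (1.56), Ryr1 (2.82) and Cacna1s (3.88) were among them, while Ttn, Neb, Tnni2 and Actn2 did not pass over introns and Tnnt3 was the 1 below. The intronic falls were no larger at this hour, where 2 of the 27 had a higher and none a lower intronic change at ZT0 than at the mean of the other times. Of 12 fast fibre markers, 10 fell over introns and none rose (median -2.31), beside 29.3% and 14.2% of all genes.

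Genes of proteolysis showed the opposite order. Of 18 ubiquitin ligase and proteasome genes 12 rose over introns and none fell (median 1.42), beside 14.2% and 29.3% of all genes. The exonic change fell short of the intronic one for 8 and exceeded it for 1, beside 12.9% and 9.95% of all genes. Of 24 autophagy genes it fell short for 13 and exceeded it for none. Pdk4 was extreme among named genes, at 7.22, 1.64 and 2.78 FPKM over introns in fed and 373, 386 and 395 in fasted libraries (6.67), against an exonic change of 4.11 (difference -2.56). Fbxo32 differed by -2.15, whereas Trim63 rose by 4.88 over introns and 4.51 over exons and did not pass (-0.37), and Sesn1 rose more over exons (difference 1.06). Itgb6, an integrin subunit, fell over exons (-3.19) more than over introns (-0.42, difference -2.77). The gene models 1700101I11Rik (-3.01) and 4833419F23Rik (-2.65) and Mt3, a metallothionein (-2.54), complete the 5 lowest; 1700101I11Rik lies opposite Gabarapl1.

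**Figure D5:**
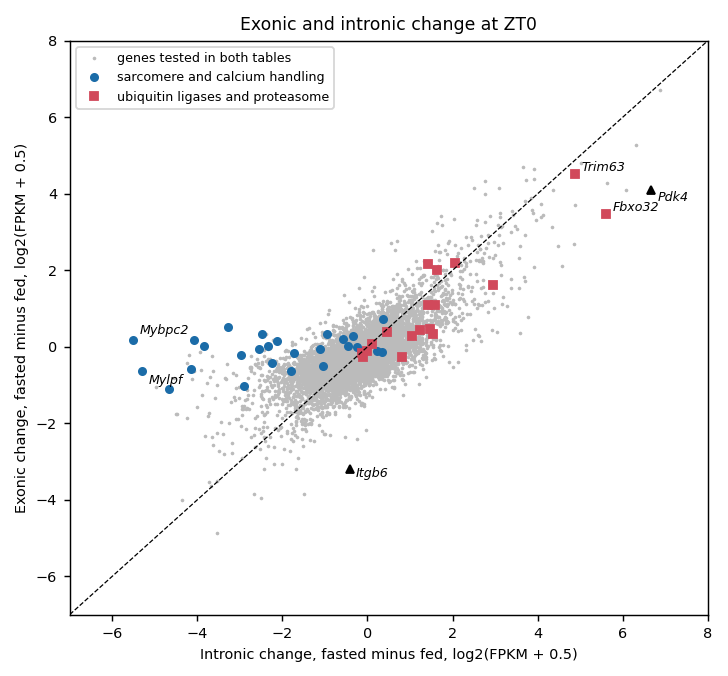
Exonic (vertical) against intronic (horizontal) change at ZT0 for genes tested in both tables, on the log2(FPKM + 0.5) scale, fasted minus fed; the dashed line marks equal change. Sarcomere genes (circles) spread to the left near an exonic change of 0, as Mybpc2 does at -5.51 and 0.18, and ubiquitin ligase and proteasome genes (squares) lie on or right of the line, apart from a few.

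Dbp differed between the tables at this hour. Its intronic signal was 20.2, 19.4 and 21.8 FPKM in fed and 7.78, 4.01 and 1.56 FPKM in fasted libraries (-2.30), with every fed library above every fasted one, and the exonic change exceeded the intronic one by 1.97. Counted over all genes, the ZT0 change over introns differed from the mean of other times for 65 genes upward and 129 downward (2.13% in all), and over introns no gene (0%) was set apart from every other time in limma, against 88 at an unadjusted p under 0.05. Over exons 1 gene was, Ppp1r10 (0.00916%).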

How the data were processed

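Per the labels' protocols, TRIzol extracts of gastrocnemius went into TruSeq RNA v2 libraries, a kit that leaves strand unmarked. The authors deposited values for whole genes, exons and introns, which were taken as FPKM (normalized by the authors to transcript length and library total) from the values themselves: none is below 0, totals differ between libraries, and low values step with the inverse of transcript length. The submitters' processing notes name CASAVA 1.8.2 and the build mm10; aligner, counter and annotation: not given in the sources used here. From the commonest total that the low values of single-transcript genes gave (21.3% to 24.7% of such genes), ZT0 libraries held an estimated 22.7 to 26.0 M reads over whole genes and 18.6 to 19.8 M over exons. Since whole reads did not come out for most genes, a count test was not used.

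Libraries were grouped by tissue, feeding state and time in their labels. The model, limma 3.58.1 (R 4.3.3) on log2(FPKM + 0.5) with a trend in its empirical Bayes step, held 12 group means over 36 muscle libraries (24 residual degrees of freedom). A gene entered with 1 FPKM or more in 3 or more of these, except where its mean in liver was at least 100 times that in muscle. Benjamini-Hochberg adjusted p-values over the genes tested were held against 0.05. A gene was set apart at ZT0 where its ZT0 change and all 5 differences from other times passed with 1 sign. In the exonic minus intronic comparison, each library's exonic log2 value less its intronic one was fitted. Tested on simulated data of 11134 genes with 200 changed at ZT0, the model recovered 43.3%, 94% and 100% of changes of 0.5, 1 and 2 log2, and 7.46%, 52.2% and 92.4% of these as set apart.

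The 40 gene lists and the comparison were chosen with earlier results of these data known. Named genes are the 12 largest rises and falls without overlap, genes set apart, core clock genes, up to 4 members per list by smallest adjusted p plus the largest not passed, the 5 largest exonic minus intronic differences per direction, and Alb, Apoa1, Acta1 and Ckm. The 12 largest differences from other times per direction, and some further list members, were added after their values were seen. A few genes named by this rule are not reported here. Coordinates are on mm10 from GENCODE M21, 1-based, matched by symbol. Alternatives were other scalings, filters, pseudocounts, liver cutoffs and reference times, subtraction of the liver share, a replicate block, and leaving out each ZT0 library. Python 3.11.15 (pandas 2.3.3, NumPy 2.4.6, matplotlib 3.10.9) served for joins and plots.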

Additional observations from a re-analysis of the deposited data

Results flagged for a closer look

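For 45 named genes, the fasting change at ZT0 differed from the mean change at the other 5 times (limma, adjusted p under 0.05). Of these, 24 were higher and 21 lower at ZT0. Many of them were named for the size of this same difference, equally many per direction, after their values were seen. The count and its split therefore cannot show how common such differences were. Over all 11134 genes, 175 (1.57%) were higher and 1179 (10.6%) lower. Differences below are on the log2(FPKM + 0.5) scale, ZT0 minus the mean of other times. Of the 45, Glul and Ppp1r10 also differed from ZT20 alone. The call was lost in 8 of 19 alternatives for Arntl and for Chac1, in 6 for Cited2 and in 5 for Tmem233. With 3 libraries per group, no search for single outlying libraries was made.

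Clock and clock output genes had higher changes at ZT0 in Dbp (2.58), Per1 (1.29), Per2 (0.88) and Ucp3 (0.74), and a lower one in Arntl (-0.78). Among genes of fuel and amino acid use, higher changes were those of Pdp2 (1.16), Pdp1 (0.59), Glul (0.71), Slc43a1 (0.97) and Chac1 (2.17). Signalling and stress genes with higher changes were 8430408G22Rik (1.17), Cited2 (1.35), Arrdc2 (0.98), Hmox1 (0.92), Myc (0.84), Pik3ip1 (0.74), an inhibitor of PI3 kinase, and Herpud1 (0.42). Muscle genes with higher changes were Mylk4 (2.17), Trim7 (1.21), Mettl21e (1.16), Klhl33 (1.13), Smco1 (1.12) and Casq1 (0.48), and Fgfbp1 (1.55) and Tmem233 (1.13) joined them.

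Lower changes at ZT0 were led by Flrt1 (-1.51), Impact (-1.48), Spon2 (-1.44), Ppp1r10 (-1.42), Zfp60 (-1.41), Ogg1 (-1.40) and Sh3bp2 (-1.34). Zfand2a (-1.26), an arsenite-inducible zinc finger gene, Zwint (-1.26), Gpatch1 (-1.25), Lin54 (-1.25) and Ifi30 (-1.22) followed. Chaperone and oxidant defence genes among them were Dnaja1 (-0.90), Hsf2 (-0.71) and Gclm (-0.54). Nucleolar and translation genes were Gnl3 (-0.84), Eif3a (-0.62), Rrs1 (-0.44) and Ncl (-0.31), and Tfe3, a lysosomal regulator, was lower by -0.51. Flrt1 overlaps Macrod1 on the opposite strand.

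Liver transcripts, which the comparison set aside, stood above the fasted level in fed muscle at ZT0. Alb had a mean of 25.1 FPKM and Apoa1, an apolipoprotein gene of hepatocytes, a mean of 6.13 FPKM in the 3 fed libraries. Of the 89 genes set aside, 69 were higher in each fed than in each fasted library. Among the 11134 genes tested, 69.5% had no overlap between the groups in either direction.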

How the results depend on the processing

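Of 229 values for single named genes, 160 kept their direction and side of the threshold under every alternative run. Counted once per value and setting over 21 settings, 3968 runs stayed the same, 104 lost and 61 gained a call. In 1 run the direction reversed (Ndufs1, 0.042 under median-of-ratios scaling). In simulated data 43.3% of changes of 0.5 log2 were recovered; the effect of depth on this was not tested. Median-of-ratios scaling gave 2810 rises and 2671 falls over whole genes, 2723 and 2586 over exons, and 359 higher and 516 lower differences from other times. Quantile normalization gave 2670 whole-gene rises, 2576 and 3011 exonic rises and falls, 1990 intronic rises, and 349 and 545 differences. Against ZT4, ZT8 and ZT12 alone 343 genes were higher, and against the mean of ZT4 and ZT20 1 gene was higher and 1 lower. With no filter on low values, 1869 genes had an exonic change below the intronic one; fitted to the 6 ZT0 libraries alone, 487 were above and 594 below. The number set apart was 2 with no filter (Ppp1r10 and Tro), 2 with no gene set aside (Pik3ip1 and Ppp1r10), 0 at a threshold of 0.01 and 0 to 3 when 1 ZT0 library was left out (3 without fasted replicate 3).

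Leaving out each ZT0 library gave 1394 to 1549 rises and 3794 to 4320 falls over whole genes, 1238 to 1399 and 4057 to 4715 over exons, and 1050 to 1220 and 1912 to 2775 over introns. Differences from other times were 65 to 134 higher and 540 to 1004 lower (65 and 540 without fasted replicate 1, 103 and 638 without fed replicate 5, 88 higher without fed replicate 3 and 86 without fed replicate 4), and exonic minus intronic changes 518 to 946 higher (518 without fasted replicate 1) and 719 to 993 lower. Replicate numbers 3 and 5 occur on both sides. Deviations of same-numbered libraries correlated at 0.0221 and -0.146, and those of other pairs at -0.143 to 0.182. With deviations taken from means of 3 libraries, these values cannot tell whether the numbers pair libraries. With the replicate number as a block, 1524 genes rose and 4265 fell, 85 and 692 differed from other times and 0 were set apart. Per-list counts under each setting were added after the data were seen. The causes of these shifts were not tested.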
